A study of Rattus norvegicus with 2 samples.

Results

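The genes described here encode the proteins of the cytosolic ribosome in sympathetic neurons of the rat stellate ganglion. They were chosen by gene symbol alone, as names built from Rpl or Rps and a number, with Rplp0, Rplp2 and Rpsa, leaving out the ribosomal S6 kinases (Rps6k) and names ending in -ps. This gave 83 of 25395 genes, of which 50 belong to the large subunit and 33 to the small subunit. The stellate ganglia, which carry most of the sympathetic outflow to the heart, were dissociated with collagenase and trypsin, and the cells were sequenced in droplets (scRNAseq). 1 library came from male normotensive Wistar rats and 1 from male prehypertensive SHRs (spontaneously hypertensive rats), both of 5 to 6 weeks of age and untreated as far as the labels say. The number of animals behind each library is not given in the sources used here.

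The ribosome translates every mRNA of the cell. Its small subunit reads the mRNA, and its large subunit joins the amino acids and releases the chain through an exit tunnel. A ribosome holds a single copy of nearly every ribosomal protein, so the proteins are needed in equal numbers, and their mRNAs share a run of pyrimidines at the 5′ end (the TOP tract) through which mTOR signaling sets their translation. Ribosomal proteins made in excess are degraded. In neurons, ribosomes are found in the cell body and dendrites and also in axons.

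The value for each gene is a mean over the neurons of a library, in counts per 10000 counts of a cell. In this 3′ chemistry a molecule is counted at its 3′ end, so means of different genes were compared without a correction for gene length. With 1 library per strain there is no replicate error and no test between strains, and strain and library cannot be told apart. The depth per neuron is unknown, so no counting interval can be given. A difference is given as the percent change of the mean and as the difference of log2(1 + mean), SHR minus Wistar, on which the added 1 makes the differences of low genes smaller. A gene was called higher or lower by size when this log2 difference reached 0.25 in either direction. Beside the neuron label, 11 markers were read, among them Th, Dbh and Slc6a2, which were all above 0 in both libraries. As 14256 of the 25395 genes were above 0 in both, this alone does not test the label. Of the 11, 7 were lower in SHR, 3 of them by size, namely Dbh (from 10.2 to 6.36 per 10000), Ddc (from 7.05 to 3.44) and Slc18a2 (from 5.36 to 3.63). Of all genes averaging at least 0.1 per 10000, 65.6% were lower and 11.8% were lower by size. The sum of the 11 markers, 125 in Wistar and 128 in SHR, is carried by Prph, at 58.0 and 67.6.

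The TOP tract can be seen in the genome at the start of many of these genes. The start regions of 63 of the 83 symbols were found in RefSeq on the GRCr8 rat assembly, as 64 sequences. A C at the annotated start followed by at least 4 bases that are each C or T, read on the strand of the gene, was present in 20 of the 64 sequences (31.2%), against 2.63% of all 33469 start regions of the same length. When such a run could begin within 10 bases on either side of the annotated start, it was present in 68.8% against 27.8%. The following windows hold 15 bases before and 15 bases from the annotated start, 5′ to 3′, with the run of C and T that begins with a C at the start in capitals. They are shown as 7 examples of the run, from both subunits, and 3 members without it at the start, so the run is more frequent here than in the set.
Rpl37a: gcatgcccgttgcgtCTCTTCCTCTTCggg
Rpl10: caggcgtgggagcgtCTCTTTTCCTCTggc
Rpl31: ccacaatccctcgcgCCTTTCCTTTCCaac
Rpl19: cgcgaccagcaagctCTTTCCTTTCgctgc
Rpl17: tagccttcgcgcttcCTCTTCCTgttagcg
Rps18: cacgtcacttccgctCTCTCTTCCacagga
Rps15: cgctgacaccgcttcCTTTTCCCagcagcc
Rps15a: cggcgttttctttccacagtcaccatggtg
Rpl41: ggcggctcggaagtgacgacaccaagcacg
Rpl6: tatttttacatcactagatggcgggtgaaa
In the first 7 windows the run starts at the annotated base. Rps15a has a run of the same kind that ends just before the annotated start, and in Rpl41 and Rpl6 none stands at the start. A match is a description of these letters, and a missing match says only that the letters are not at the annotated start. Among members with a single start region and an average of at least 0.1 per 10000, the 17 with the run at the start had a median change of 40.3% and the 35 without it a median change of 49.2%.

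Nearly every ribosomal protein gene that could be measured had a higher mean in the SHR neurons. Of the 83 genes, 68 had an average over both libraries of at least 0.1 per 10000, 8 were above 0 but under this minimum and 7 were listed at 0 in both strains. Of the 68, 67 were higher in SHR and 1, Rpl30, was lower, where 34.4% of the 7621 genes past the same minimum were higher. By size, 55 of the 68 were higher and 0 were lower, against 6.53% of all genes higher and 11.8% lower. A difference of 0.5 was reached by 15 of the 68 and by 1.23% of all genes. The median log2 difference of the 68 was 0.40, with quartiles of 0.32 and 0.49, and that of all genes past the minimum was -0.05.

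Expressed as percent, the median change of the 68 genes was 47.1%, with quartiles of 36.8% and 52.6%. For 65 of them the SHR mean was between 20% and 80% above the Wistar mean, so the changes lay close together. The exceptions were Rpl30 and Rpl17 below this range and Rps25 above it. The 83 genes summed to 229 per 10000 in Wistar and 332 in SHR, an increase of 45.1%, which is 2.29% of all counts in Wistar and 3.32% in SHR. Among the 200 most abundant genes of each library were 8 members in Wistar and 18 in SHR.

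**Figure D1:**
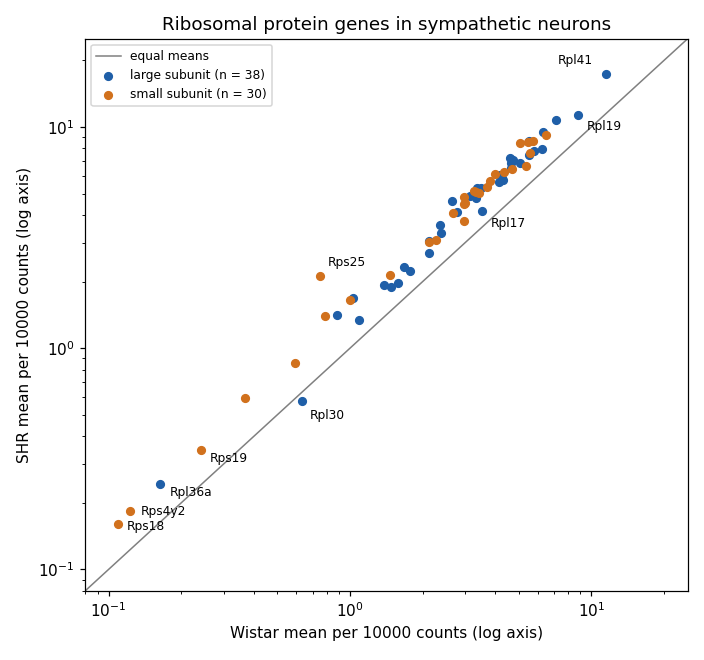
Mean per 10000 counts of each of the 68 ribosomal protein genes past the minimum, in Wistar (horizontal, log axis) and SHR (vertical, log axis), with the line of equal means. All points but Rpl30 lie above the line, and Rps25 lies farthest from it.

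The order of the genes by level was nearly the same in both strains. Across the 68 members the means of the strains had a Spearman's rho of 0.99 and a Pearson's r of 0.99, given as a description over genes that share the same pair of libraries. Although the proteins are needed in equal numbers, their listed mRNA means differed widely, for example 0.241 per 10000 for Rps19 and 11.4 for Rpl41 in Wistar. For several low members another line holds most of the counts, and some members that every cell needs are listed at 0. The listed means therefore do not give the true ratios between these mRNAs. The percent change did not follow the level, with a rho of -0.03 over the 68 genes. The log2 difference did follow it, with a rho of 0.56, on a scale where the added 1 shrinks the values of low genes.

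Both subunits moved together. In the large subunit 37 of 38 genes past the minimum were higher in SHR, 30 of them by size, with a median log2 difference of 0.38 and a median change of 41.9%. In the small subunit 30 of 30 were higher, 25 of them by size, with a median log2 difference of 0.44 and a median change of 49.6%. The sum of the large subunit genes went from 140 to 200.4 per 10000 (42.9%), and that of the small subunit genes from 88.5 to 131 (48.5%). The quartiles of the percent change overlapped, at 33.8% and 52.0% for the large subunit and 44.1% and 55.4% for the small subunit. Whether the subunits differ was not tested.

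**Figure D2:**
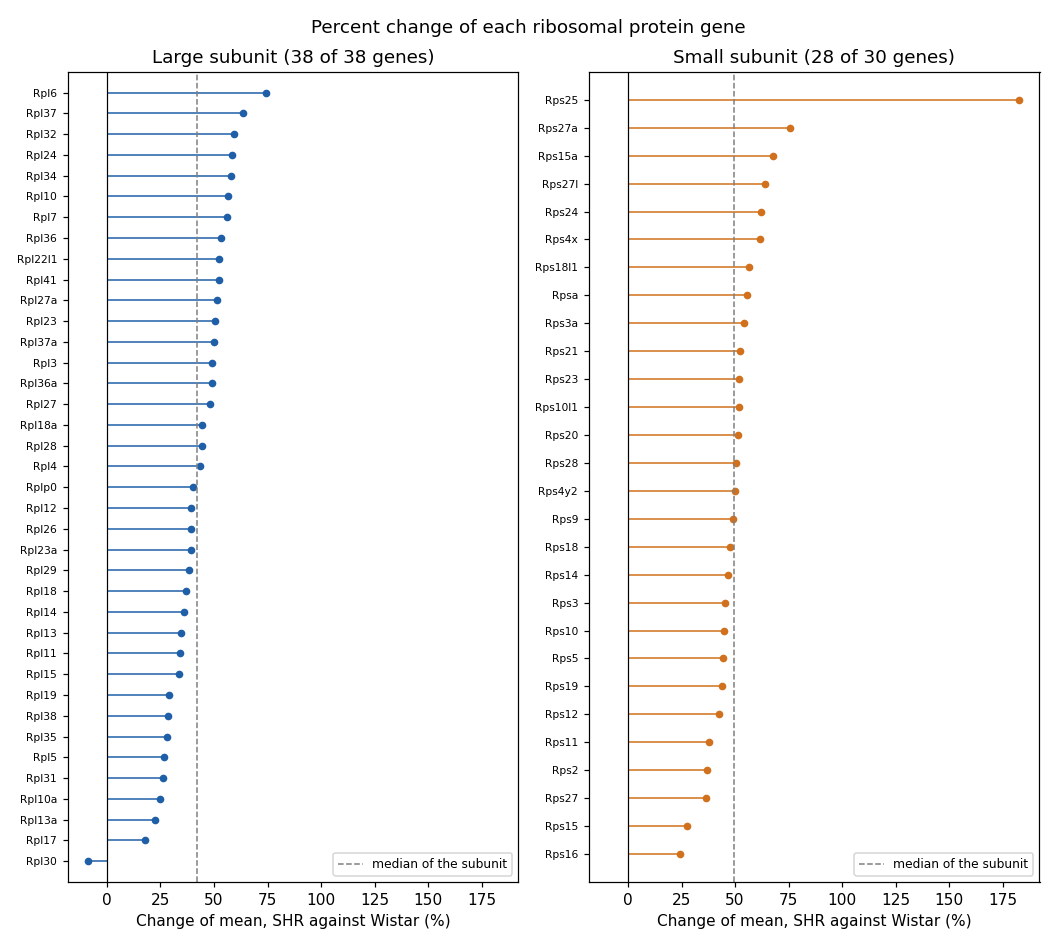
Percent change of the mean, SHR against Wistar, for genes of the large subunit (left, n = 38) and small subunit (right, 28 of 30 drawn) past the minimum, with the median over all 38 and all 30 as a dashed line (41.9% and 49.6%). Rpl30 is the only gene drawn below 0, and Rps25 stands apart at 183%.

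Among the large subunit genes, Rpl41, which encodes the smallest ribosomal protein, was the most abundant member of the whole set. Wistar neurons held 11.4 per 10000 and SHR neurons 17.4 (52.2%, log2 difference 0.57), and its rank among all genes was 73 and 46. Rpl19 followed with 8.78 in Wistar and 11.3 in SHR, a smaller change of 29.1%. Rpl23 went from 7.12 to 10.7 per 10000 (50.6%) and Rpl27a from 6.29 to 9.52 (51.4%). The largest log2 difference of the large subunit was that of Rpl6, at 0.62, with 2.64 per 10000 in Wistar and 4.61 in SHR (74.4%). Rpl24, at 4.58 in Wistar and 7.26 in SHR, had a log2 difference of 0.57. Rpl10, whose protein joins the large subunit in a late step of its maturation, went from 5.52 to 8.63 per 10000 (56.5%, log2 difference 0.56).

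Of the stalk, through which translation factors are recruited and activated, Rplp0 encodes the base. Rplp0 averaged 4.64 per 10000 in Wistar and 6.51 in SHR (40.3%). Its partner Rplp2 was listed at 0 in both strains, and Rplp1 was not analysed here. The proteins of Rpl5 and Rpl11 bind the 5S rRNA and, outside the ribosome, restrain Mdm2 and so stabilize p53. Rpl11 went from 5.80 to 7.78 per 10000 (34.2%) and Rpl5 from 2.12 to 2.68 (26.6%), both below the median change of the large subunit.

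The proteins of Rpl4, Rpl17, Rpl19, Rpl23a, Rpl26, Rpl31 and Rpl35 line the exit tunnel of the growing chain or surround its mouth. This grouping was made after the values were seen. All 7 genes were higher in SHR, 5 of them by size, with changes from 17.9% (Rpl17) to 43.6% (Rpl4) and a median of 29.1%. Of the 38 large subunit genes past the minimum 37 were higher and 30 by size, and of all genes 34.4% and 6.53%. Of the 7, 6 were below the median change of the large subunit. Rpl35 went from 6.22 to 7.96 per 10000 and Rpl31 from 1.77 to 2.23.

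Among the abundant small subunit genes, Rps23, whose protein sits at the decoding center, went from 5.72 to 8.68 per 10000 (51.8%, log2 difference 0.53). Rpsa, which also encodes the laminin receptor precursor, went from 5.48 to 8.54 (55.8%). Rps15a went from 5.06 to 8.47 (67.5%), a log2 difference of 0.64.

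The largest change of the 68 members past the minimum was that of Rps25, whose protein is used by viral and some cellular internal ribosome entry sites. Rps25 averaged 0.753 per 10000 in Wistar and 2.13 in SHR, a change of 183% and a log2 difference of 0.84. It ranked 2344 among all genes in Wistar and 736 in SHR. The next largest change in percent among the 68 was that of Rps27a, made as a fusion with ubiquitin, at 75.8%, from 0.791 to 1.39 per 10000. A further line, Rps27a.1, held most of the counts of this symbol, at 8.11 in Wistar and 12.6 in SHR. The 2 lines summed were higher by 57.3%, so the rank of Rps27a rests on its minor line.

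Mutations in several members cause Diamond-Blackfan anaemia, an inherited failure of red cell production. Of Rps19, Rps24, Rps10, Rpl5, Rpl11 and Rpl35a, grouped after the values were seen, 5 passed the minimum. All 5 were higher in SHR, 2 of them by size, with changes of 26.6% (Rpl5) to 62.3% (Rps24). Of the 68 members past the minimum 67 were higher and 55 by size, and of all genes 34.4% and 6.53%. Rps24 went from 2.96 to 4.80 per 10000. Rps19 was low, at 0.241 in Wistar and 0.347 in SHR (44.0%).

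The exceptions to the shared direction and size fall into different kinds. Rpl30 was the only member past the minimum with a lower mean in SHR. It stood at 0.634 per 10000 in Wistar against 0.579 in SHR, a change of -8.73% and a log2 difference of -0.05. When the median difference of all genes was set to 0, this difference became 0.0026. Rpl17 (3.52 and 4.15 per 10000, 17.9%), Rpl13a (1.09 and 1.33, 22.7%), Rps16 (5.35 and 6.65, 24.3%) and Rpl10a (1.57 and 1.96, 24.6%) were higher by less than 25%. The other 63 of the 68 genes were higher by at least 25%, where 15.5% of all genes past the minimum were.

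By the log2 size rule 13 members did not reach 0.25. Of these, 6 had averages of at least 1 per 10000 and changes of 17.9% to 28.5% (Rpl5, Rpl10a, Rpl13a, Rpl17, Rpl31 and Rpl38). Rpl30 and 6 others had averages under 1 per 10000. These 6 (Rps4x, Rps4y2, Rps10, Rps18, Rps19 and Rpl36a) were higher by 44.0% to 61.6%, as much as the rest of the set, and missed the size only because of the added 1.

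Several of the low members have another line in the data that holds most of the counts. Rps18 had 0.109 per 10000 in Wistar and 0.161 in SHR, while Rps18l1 had 3.26 and 5.12. Rps10 had 0.594 and 0.861 and Rps10l1 had 2.68 and 4.06. Reads of near-identical copies cannot be assigned to a copy with certainty, so the level of each such gene on its own is uncertain.

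Some symbols have a further line with a suffix, and for Rps4x, Rps27a and Rpl21, but not for Rpl32, the further lines held most of the counts. Rps4x, the X-linked gene of a small subunit protein, had 0.367 and 0.594 per 10000, and the line Rps4x.1 had 4.12 and 6.59. Rps27a.1 had 8.11 and 12.6, which made it more abundant than Rps27a itself. Rpl21 itself held 0.0102 in Wistar and 0.00481 in SHR, and the line Rpl21.3 had 1.97 and 2.55.

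When the lines of each family were summed, all 8 families were higher in SHR, and 5 of the 8 changes lay above the upper quartile of the 68 members, 52.6%. The families with Rps18l1, Rps10l1, Rps27l and Rpl36al join genes with separate names, so their sums are not those of a single gene. Rps4x summed to 4.49 per 10000 in Wistar and 7.18 in SHR (60.0%), Rps27a to 8.90 and 14.0 (57.3%), and Rpl32 to 1.21 and 1.90 (56.8%). Rps18 with Rps18l1 was higher by 56.4%, Rps10 with Rps10l1 by 50.5%, Rps27 with Rps27l by 45.0% and Rpl36a with Rpl36al by 55.7%. Rpl21 with its suffixed lines was higher by 28.7%, below the lower quartile of 36.8%. The first-named line held 8.18% of the family's counts in Wistar and 8.27% in SHR for Rps4x, 3.23% and 3.05% for Rps18, 69.3% and 65.2% for Rps27, and 0.515% and 0.188% for Rpl21. These families were put together after the values were seen.

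**Figure D3:**
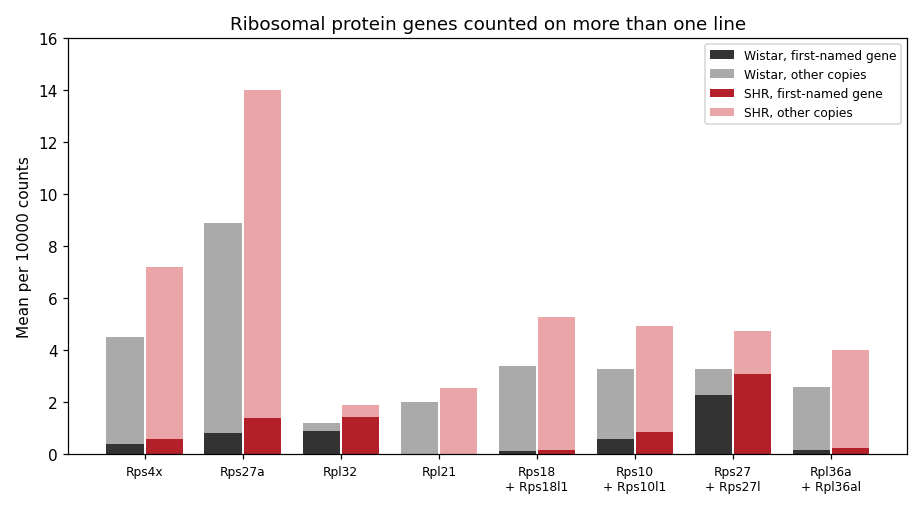
Mean per 10000 counts of 8 ribosomal protein families that have more than one line, in Wistar (gray) and SHR (red). The first-named gene is in the dark color. The other lines, which are suffixed lines or genes with a separate name, are stacked on it in the light color. Except for Rpl32 and Rps27, most counts lie on the other lines, and each stack is higher in SHR.

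Some members that every cell needs were listed at or near 0. Rpl8, Rpl39, Rplp2, Rps6 and Rps29 were listed at 0 in both strains, as was Fau, which encodes another small subunit protein under a name outside the rule. Rps6 encodes the substrate of the S6 kinases that is widely used as a readout of mTOR activity. In Wistar Rpl7a had 0.000447 per 10000 and in SHR it was listed at 0, Rpl35a had 0 and 0.00214, and Rpl9 had 0.0460 and 0.0999. All cells need these proteins, so these values are given only as listed and no fold is drawn from them. The GRCr8 annotation in RefSeq names 908 pseudogene copies of ribosomal protein genes, with 2 to 20 copies of each of the 5 members at 0 and 1 to 36 copies of each of the 63 members past the minimum without a paralog name. Over the 72 members without a paralog name the number of copies and the average level had a rho of -0.04. Rpl22, Rps7, Rps13 and Rps26 were not analysed here.

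Paralog genes, which encode alternative versions of a ribosomal protein, make up 11 of the 83 members by name. Rpl22l1, the paralog of Rpl22, was abundant, with 3.49 per 10000 in Wistar and 5.32 in SHR (52.5%). Rps27l, a p53 target similar to Rps27, went from 1.00 to 1.65 (64.2%), and Rps27 from 2.27 to 3.09 (36.5%). Rps4y2 was low, at 0.123 and 0.184. Rpl3l, a paralog of striated muscle, was listed at 0 in both strains, and the testis paralogs Rpl10l and Rpl39l had at most 0.0112 per 10000. Rpl7l1 had 0.0180 in Wistar and 0.00614 in SHR.

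Other TOP mRNAs were also mostly higher in SHR. Rack1, a scaffold protein of the small subunit, went from 2.06 to 2.54 per 10000 (log2 difference 0.21). Of 17 other mRNAs known for a TOP tract, 15 passed the minimum, 13 of these were higher in SHR and 5 were higher by size, with a median log2 difference of 0.17. Of all genes past the minimum 34.4% were higher and 6.53% by size, and of those averaging at least 1 per 10000 54.5% and 25.7%. Among them Tpt1 went from 8.53 to 12.0 per 10000, Naca from 3.04 to 4.43 and Npm1 from 2.08 to 3.16. Eef2, the elongation factor of translocation, had 5.46 in Wistar and 5.78 in SHR.

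Genes of ribosome assembly and of mTOR signaling were lower in SHR in a share near that of all genes past the minimum, of which 65.6% were lower. Of 21 genes of ribosome assembly and rRNA synthesis, 18 passed the minimum and 13 of these were lower in SHR, 3 of them by size, with a median log2 difference of -0.08. By size, 11.8% of all genes past the minimum were lower. Dkc1, the pseudouridine synthase of rRNA, went from 1.63 to 0.652 per 10000, and Nop56, of the particle that methylates rRNA, from 0.939 to 0.554. Fbl, the methyltransferase of that particle, had 0.0924 in Wistar and 0.125 in SHR, and Pes1, which acts in large subunit assembly, 0.161 and 0.195. Of 17 genes of mTOR signaling and TOP control, 11 passed the minimum and 8 of these were lower. Mtor had 0.696 in Wistar and 0.452 in SHR, and Rps6kb2, an S6 kinase, 0.695 and 0.343. Rheb, the activator of mTOR, had 3.75 and 4.82.

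**Figure D4:**
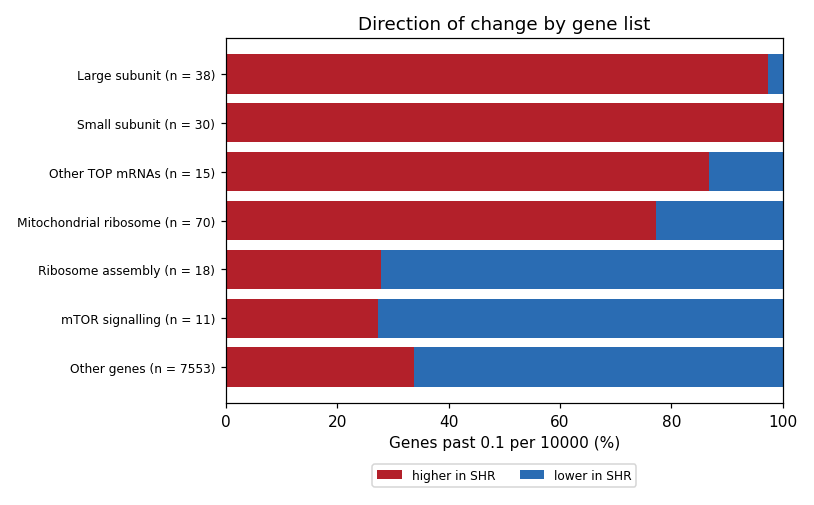
Share of genes past 0.1 per 10000 that were higher (red) or lower (blue) in SHR, for the ribosomal protein genes of each subunit, other TOP mRNAs, the mitochondrial ribosome, ribosome assembly, mTOR signaling and all genes other than the members (n = 7553). The members of both subunits are nearly all higher, and the assembly and mTOR lists lie near the other genes.

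Abundant genes and short genes were more often higher in SHR than genes at large, and most members are both. Of all 1676 genes with an average of at least 1 per 10000, 54.5% were higher and 25.7% were higher by size. Of the 61 members in this range, 61 were higher and 55 were higher by size. The median change was 46.8% for these 61 genes and 2.52% for the 1615 others, whose quartiles were -18.4% and 27.5%.

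The genes were also set in 10 equal groups by their span in GRCr8. The group of the shortest genes held 51 of the 68 members, of which 98.0% were higher, with a median log2 difference of 0.39. Of the 678 other genes of this group 70.9% were higher, with a median of 0.08. In the next group, 13 of 13 members and 52.0% of the 716 others were higher. Members made up 11.0% of the 498 genes that were higher by size.

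**Figure D5:**
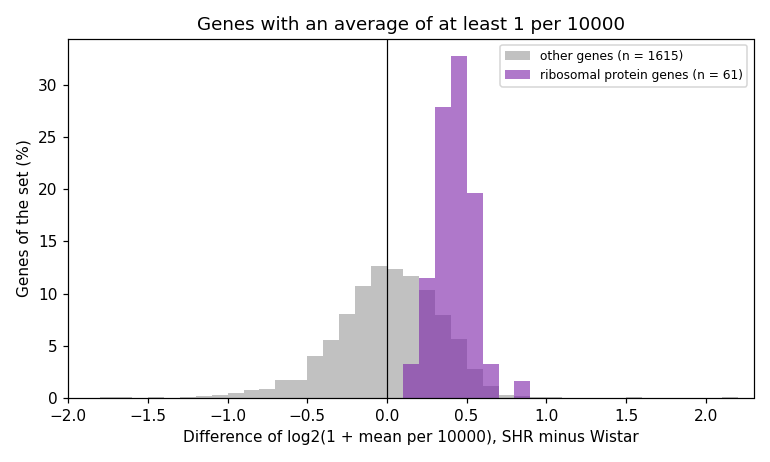
Distribution of the log2 difference, SHR minus Wistar, among genes with an average of at least 1 per 10000, as the percent of each set in bins of 0.1, for 61 ribosomal protein genes (purple) and 1615 other genes (gray). The members form a narrow peak around their median of 0.42, inside the upper part of the range of the other genes.

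The sums of markers of other cells also differed between the libraries. RNA quality was not measured, and the mitochondrial share and 1 nuclear-retained RNA are given below as values only. The 10 markers of satellite glia and Schwann cells, all above 0 in at least one library, summed to 9.43 per 10000 in Wistar and 3.47 in SHR, with Kcnj10 at 0 in SHR. Most of this sum is Apoe, at 6.24 in Wistar and 2.23 in SHR. The 6 fibroblast markers summed to 1.84 and 0.353. Of the 8 immune markers 7 were above 0, with sums of 1.26 and 0.420, and Cd3e was at 0 in both. Endothelial (0.0586 and 0.0262), smooth muscle (0.110 and 0.0705) and erythrocyte markers (0.0669 and 0.0499) were near 0 in both libraries, with Rgs5 at 0 in SHR and Alas2 at 0 in both. The 13 mitochondrially encoded genes took 16.9% of the counts in Wistar and 18.0% in SHR. Of the nuclear-retained RNAs listed, Snhg11 was the one analysed here, with 26.0 per 10000 in Wistar and 11.3 in SHR. The part of these differences in the values of the ribosomal protein genes was not tested.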

How the data were processed

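Stellate ganglion cells of each strain were sequenced with 10x Genomics chemistry. The submitters' processing notes name Cell Ranger 3.0.2, Seurat 3, DESeq2 and the Rnor_6.0 assembly. Per the paper's methods, the cells were clustered with Seurat. For each library the authors deposited means over the sympathetic neurons, 1 per gene, as ln(1 + x), a natural log in which x is the mean number of counts per 10000 counts of a neuron. Converted back, the values of all 25399 lines sum to 10000 in each library, and 4 lines that share a name with another line were dropped. Cell filters, the number of neurons and the treatment of doublets are not given in the sources used here. The authors' own comparison (p-values, fold changes and detection shares) was not used.

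Means, differences, medians and counts were computed with Python 3.11.15, NumPy 2.4.6, pandas 2.3.3 and SciPy 1.17.1. The code of the log2 difference and of the size rule was run on simulated means without noise. There the formula fixes the outcome, so this checks the code and not the method. The minimum was an average of 0.1 per 10000 over both libraries. Members, lists and rules were chosen with earlier results of these data known. The genes named include, for each subunit, the 4 most abundant and those with the 3 highest and 3 lowest log2 differences, every member lower in SHR, fixed genes by role and paralogs. Members named for their percent change, the tunnel exit and anaemia groups and the copies were chosen after the values were seen. Gene spans, pseudogene names and start regions come from RefSeq on GRCr8, which is not the assembly of the data. All 68 members past the minimum have a span, as do 7289 of the 7621 genes. Protein lengths were not used here. Some genes under these rules are not reported here.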

Additional observations from a re-analysis of the deposited data

How the results depend on the processing

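No paired analysis was possible because the strains are represented by 1 library each, and for the same reason no library could be left out. A median was taken as moved when it changed by 0.05 or more, a share by 10% of its value or a count by over 1.5 times. The medians, counts and shares kept their direction under every alternative tried. A change of the pseudocount or of the size rule cannot turn a sign, so these settings could not have changed the direction. Leaving genes out of the total or setting the median of all genes to 0 raised each median. The pseudocount sets the size by construction. The median log2 difference of all members, of the large and of the small subunit was 0.52, 0.47 and 0.55 with a pseudocount of 0.1, 0.16, 0.15 and 0.16 with 10, and 0.56, 0.50 and 0.58 with none, a setting added after seeing the data. The median of all genes past the minimum was -0.16, -0.0069 and -0.21 in these settings. With the median of all genes set to 0 these medians were 0.46, 0.43 and 0.49. Without the 20 most abundant other genes in the total, the median of all members was 0.46. The members higher by size, 55, became 6 with a pseudocount of 10 and 15 with a size of 0.5. The share of the counts taken by the members became 2.75% in Wistar and 4.05% in SHR without mitochondrially encoded genes, and 3.02% and 4.45% without the 20 most abundant other genes. Leaving the members out of the total kept all 36 named genes within 0.05 of their values. The members take only 2.29% of the counts in Wistar and 3.32% in SHR, so this setting could not move a difference further. Setting the median of all genes to 0 turned the sign of 2 of the 36, Rpl30 and Rpl7l1. Depth is unknown, so the counting error of low members cannot be stated.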

Other observations

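The mitochondrial ribosome, which translates the proteins encoded by mitochondrial DNA and shares no protein with the cytosolic ribosome, had higher means in SHR for most of its nuclear genes. Of 75 Mrpl and Mrps genes, 70 passed the minimum of 0.1 per 10000, 54 of these were higher in SHR and 16 lower, where 34.4% of all genes were higher. By size, 9 of the 70 were higher and 0 were lower, against 6.53% of all genes higher and 11.8% lower. Of genes averaging at least 1 per 10000, 54.5% were higher and 25.7% by size. In the group of the shortest genes, 70.9% of those outside the cytosolic set were higher and 21.5% by size. Whether the 70 differ from genes of like span and level was not tested. Their median log2 difference was 0.10 and their median change 22.9%, against 47.1% for the cytosolic set. Mrpl54 went from 1.27 to 2.00 per 10000 and Mrps33 from 1.22 to 1.83, while Mrps31 had 0.435 in Wistar and 0.303 in SHR. Their sum went from 43.7 to 54.9 per 10000.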
